A study of Mus musculus with 5 samples.

Results

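The cytosolic ribosomal proteins are the protein subunits of the ribosomes that translate messenger RNA in the cytoplasm. Their genes were taken as those whose symbol is Rpl (large subunit) or Rps (small subunit) followed by digits and at most the letters a, l, x or y with a further digit, without pseudogenes and without the Rps6k kinases. This rule, which uses no measured value, found 80 of the 22183 genes in the table, 49 of the large and 31 of the small subunit. RNA carrying poly(A) tails was sequenced from whole lenses of mice at postnatal day 14, in 2 libraries from a conditional Yap1 knockout (cKO) and 3 control libraries (Ctrl). The product of Yap1 is a co-activator of transcription that Hippo signalling restrains.

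The cKO mice carried Cre with both Yap1 alleles floxed (Yap1f/f;Cre) or with a single one floxed (Yap1f/+;Cre). They were picked for a severe phenotype, with small eyes and closure of the pupillary membrane, and not by genotype alone. The Ctrl mice were littermates of genotype Yap1f/f or Yap1f/+ with normal eyes, although a label calls them WT. Floxed alleles were thus present in both groups, and no source used here names the driver of Cre. Each library was made from a pool of 4 to 6 lenses, so a library averages over animals and, in cKO, possibly over both genotypes.

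Ribosomal proteins are made in near-equal numbers, because each ribosome holds about a single copy of most of them. In mammals many of their messenger RNAs begin with a C followed by a run of C and T (the 5′ terminal oligopyrimidine or TOP start), through which mTORC1 and LARP1 set their translation. In the lens, epithelial cells keep their ribosomes, whereas fibre cells lose nuclei and organelles as they mature and no longer renew them.

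The annotated starts of 6 of these genes, and of Rps3 for contrast, are shown because the TOP start is what this gene family is known for. Rpl13a is from the high end of the order of fold changes and Rps18, Rps3, Rpl14 and Rpl22l1 are from the low end, while Rps6 is an abundant substrate of the S6 kinases and Rps27 the partner of a paralogue. Each is 30 bases of RefSeq, build GRCm38.p6, from 10 bases before the annotated start, 5′ to 3′ on the gene's own strand. They lie at chr17:33955646-33955675 (Rps18, minus strand), chr4:86857348-86857377 (Rps6, minus), chr3:90213629-90213658 (Rps27, minus), chr9:120571507-120571536 (Rpl14, plus), chr7:45128726-45128755 (Rpl13a, minus), chr3:28805498-28805527 (Rpl22l1, plus) and chr7:99483690-99483719 (Rps3, minus). Capitals mark the longest run that opens with C and goes on with at least 4 further C or T.
Rps18: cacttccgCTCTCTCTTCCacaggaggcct
Rps6: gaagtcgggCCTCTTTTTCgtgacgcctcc
Rps27: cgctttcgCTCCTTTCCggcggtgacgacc
Rpl14: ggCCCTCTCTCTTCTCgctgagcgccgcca
Rpl13a: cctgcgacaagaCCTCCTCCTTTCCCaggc
Rpl22l1: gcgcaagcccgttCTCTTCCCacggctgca
Rps3: aagggtcgccgcgctgcgcggcgtcattgc
In Rps18, Rps6, Rps27 and Rpl14 the annotated start falls on a C with 4 further C or T after it, and in Rpl13a and Rpl22l1 such a run opens within 10 bases of it. Of the 61 ribosomal protein genes with a listed promoter, 12 (19.7%) had the run exactly at an annotated start, against 3.01% of all 27025 genes listed. Within 10 bases of the start the shares were 62.3% and 34.4%. The run was searched on the gene's own strand. Over the whole 300 listed bases and on both strands, CCGGAAG (the core of ETS factor sites) stood in 39.3% of ribosomal protein genes and 9.93% of all genes, AAGATGGC (the core of YY1 sites) in 9.84% and 3.19%, and CACGTG (an E-box) in 9.84% and 8.09%. The genes with the run at the start had a median log2 fold change between cKO and Ctrl of 0.24 (12 tested), and those without it also 0.24 (46 tested). For a run within 10 bases of the start the medians were 0.30 with it (35 tested) and 0.22 without it (23 tested). With and without the motif, they were 0.19 (23 tested) and 0.30 (35 tested) for CCGGAAG, 0.26 (6 tested) and 0.23 (52 tested) for AAGATGGC, and 0.12 (6 tested) and 0.27 (52 tested) for CACGTG. These medians are descriptions without a test.

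Yap1 itself had 3.76 and 2.27 CPM in cKO 1 and 2, against 7.19, 6.49 and 5.49 CPM in Ctrl 1, 2 and 3. CPM are counts relative to a common library size after TMM scaling, which evens out differences in library composition. Both cKO libraries lay below every Ctrl library, with a log2 fold change of -1.08 and an SE of 0.33, which missed the threshold of 0.05 (adjusted p = 0.0759 by the quasi-likelihood test of edgeR, Benjamini-Hochberg over 11724 genes). Library totals were 24320302 and 22672151 expected counts in cKO and 22047580 to 25762802 in Ctrl. Crystallins, the structural proteins of the lens, took 69.1% and 66.4% of them in cKO and 71.3 to 73.9% in Ctrl. Macrophage markers together reached 276 CPM in cKO 1 and 50.9 in cKO 2, while the Ctrl libraries had 1.84 to 3.80 CPM. Of the 12 markers listed, 7 were tested and 6 of these rose in cKO, while Fcgr1 was at 0 in both cKO libraries. Lens fibre markers summed to 221145 and 217924 CPM in cKO and 191457 to 229470 CPM in Ctrl, and 1 of 8 fell. This sum includes the crystallins Cryaa and Crygs. Of these 8 fibre markers 3 had a positive log2 fold change, and the median was -0.15. Lens epithelium markers summed to 29324 and 25210 CPM in cKO and 19789 to 27814 CPM in Ctrl, and 4 of 8 fell. Their sum includes the crystallin Cryab. Gene by gene, 1 of 8 had a positive log2 fold change, and the median was -2.02. The part of these cell types in the results on ribosomal protein genes was not tested, and in such bulk RNA fewer cells of a type and less RNA per cell cannot be told apart.

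Most ribosomal protein genes were strongly expressed in the lens in both groups. Of the 80, 77 passed the filter on low counts (46 of the large and 31 of the small subunit). The remaining 3 are paralogues known for narrow expression elsewhere in the body. Rpl3l, the paralogue of Rpl3 known from heart and skeletal muscle, had 2 counts in cKO 1 and 0 in the other libraries. Rpl39l and Rpl10l, which are known from testis, had 0 counts in all 5 libraries, which allows at most 0.112 to 0.146 CPM in a library.

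Levels per gene length are given as FPKM (fragments scaled to gene length and library size), as the authors made them. The median over tested genes of the mean level was 90.1 FPKM for the large and 97.8 FPKM for the small subunit. Rpl41, which encodes the smallest ribosomal protein, had the highest mean over the 5 libraries, with 517.3 and 556.3 FPKM in cKO and 470.9, 355.8 and 344.3 FPKM in Ctrl. Rpl13 followed with 472.8 and 491.5 FPKM in cKO and 484.3, 388.1 and 358.1 FPKM in Ctrl, so that these neighbours in the order overlapped in their levels. Rpl41 was the higher of them in both cKO libraries and Rpl13 in all 3 Ctrl libraries. Rpl7, also among the 5 most abundant genes of this subunit, had 267.9 and 258.2 FPKM in cKO and 237.8, 205.2 and 220.5 FPKM in Ctrl. Rpl19, part of a bridge between the subunits, had 252.5 and 265.8 FPKM in cKO and 183.2, 168.5 and 176.8 FPKM in Ctrl. On this scale, which has no TMM scaling, the groups overlapped for Rpl13 and not for Rpl41, Rpl7 or Rpl19. After TMM scaling Rpl19 alone of these 4 had both cKO libraries above every Ctrl library.

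In the small subunit, Rps18, a protein of the subunit's head, had the highest mean over the 5 libraries, with 218.7 and 200.6 FPKM in cKO and 281.3, 241.5 and 240.1 FPKM in Ctrl. Rps14, a protein of the subunit's platform, had 257.7 and 229.5 FPKM in cKO and 244.0, 205.0 and 192.8 FPKM in Ctrl. Rps2, which lies at the entry of the messenger RNA channel, had 207.8 and 245.6 FPKM in cKO and 170.4, 151.9 and 148.9 FPKM in Ctrl. Rps18 was thus lower in both cKO libraries than in any Ctrl library, Rps2 was higher in both, and Rps14 overlapped. By the mean in cKO alone, Rps14 (243.6 FPKM) and Rps2 (226.7 FPKM) were above Rps18 (209.7 FPKM), which came first in Ctrl (254.3 FPKM). Rps6, the best known substrate of the S6 kinases, had 236.7 and 194.0 FPKM in cKO and 160.4, 144.5 and 153.1 FPKM in Ctrl. Rps25, which some viral messenger RNAs need to start translation, had 178.6 and 165.0 FPKM in cKO and 203.0, 159.0 and 164.8 FPKM in Ctrl. Rps6 did not overlap between the groups in FPKM but did after TMM scaling, and Rps25 overlapped on both scales. The lowest tested genes were Rps20 with 7.18 and 7.72 FPKM in cKO and 4.54 to 6.90 FPKM in Ctrl, and Rpl7l1 with 13.8 and 13.5 FPKM in cKO and 9.34 to 11.1 FPKM in Ctrl. For Rps20 the counts and FPKM together imply a length of 3706 nucleotides, the longest of the family, where the median of the small subunit is 661, so its low FPKM rests on that length.

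**Figure D1:**
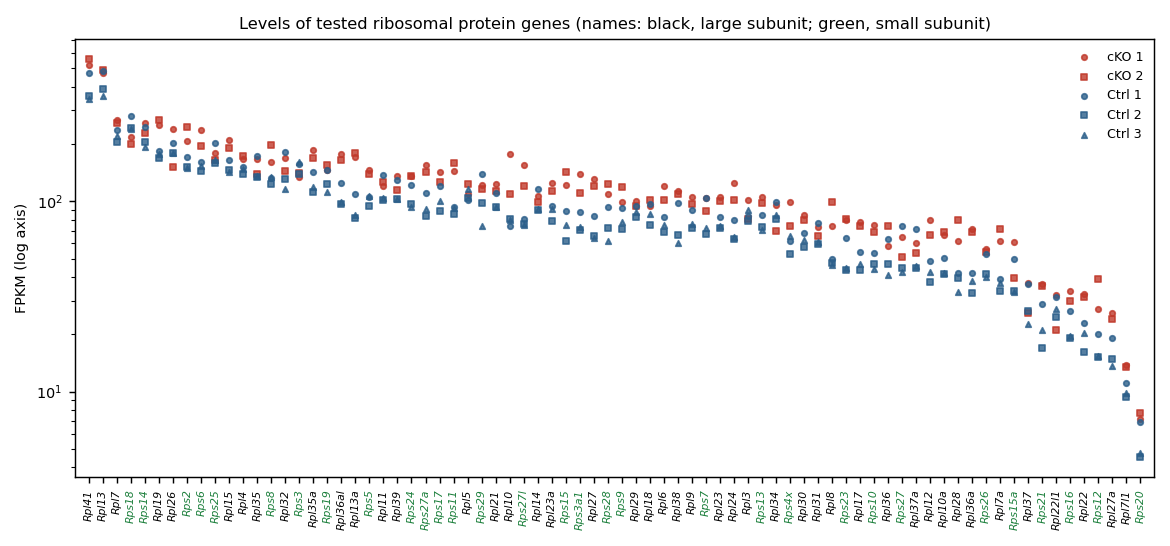
FPKM of 76 of the 77 tested ribosomal protein genes in the 5 libraries (log axis), in order of the mean level, with cKO in red and Ctrl in blue. Rpl41 is at the left with a mean of 448.9 FPKM and Rps20 at the right with 6.22 FPKM.

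The first comparison asks whether lenses of the cKO group differ from Ctrl in ribosomal protein RNA. Only Rpl8 and Rpl7a, both of the large subunit, rose in cKO, and no ribosomal protein gene fell. These 2 of 77 (2.6%) stand against 5.76% of all 11724 tested genes called higher, and the 0 of 77 called lower against 7.73%. With TMM scaling and edgeR the share of calls in this family was thus below that of all genes. The order of the shares of higher calls turned with total-count scaling, where 16 (20.8%) of the family were higher against 10.5% of all genes, and with limma on log2(FPKM + 1), where 27 (35.1%) were higher against 11.8%. Under these settings 0 of the family were lower, against 6.12% of all genes with total counts and 6.34% with limma. DESeq2 called 8 (10.4%) higher against 10.3% of all genes, and 0 lower against 13%. Without adjustment, at a p under 0.05, edgeR counted 10 higher (14.8% of all genes) and 2 lower (17.4% of all genes). Changes were small, between -0.49 and 0.70 on the log2 scale, where those of all tested genes ran from -12.68 to 15.23. Those extremes are of far more genes, many of them scarcer. The quartiles were -0.03 and 0.40 in the family. They were -0.32 and 0.42 over the 4067 genes at least as abundant as its lowest tested member. Of these 4067 genes, edgeR with TMM scaling called 9.69% higher and 8.61% lower.

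Rpl8 (ENSMUSG00000003970), which lies close to the peptidyl transferase centre, had 62.4 and 71.2 CPM in cKO and 47.8, 43.8 and 39.2 CPM in Ctrl. Both cKO libraries lay above every Ctrl library, and the log2 fold change was 0.62 ± 0.15 (SE), at an edgeR adjusted p = 0.0462. Rpl7a (ENSMUSG00000062647), another protein of the large subunit, had 56.0 and 54.9 CPM in cKO and 39.9, 33.3 and 33.7 CPM in Ctrl. Here too the groups did not overlap, and the log2 fold change was 0.64 ± 0.14 (SE), at an edgeR adjusted p = 0.0386. Both calls were lost whichever Ctrl library was left out. The edgeR adjusted p-values were then 0.119 to 0.183 for Rpl8 and 0.102 to 0.175 for Rpl7a. With cKO 1 or cKO 2 left out, the log2 fold changes were 0.70 and 0.52 for Rpl8 and 0.61 and 0.66 for Rpl7a. There a lone cKO library remains and the spread comes from Ctrl alone, so those fits cannot show whether the calls hold. Without Ctrl 1, 2 or 3 their log2 fold changes stayed at 0.59 to 0.72 for Rpl8 and 0.59 to 0.76 for Rpl7a. In those settings 0 ribosomal protein genes were called, but 0.0519 to 0.261% of all genes were called higher and 0.13 to 0.452% lower, so few genes of any kind passed. Without cKO 2 there were 20 higher (17.7% of all genes) and 0 lower (23.9% of all genes), and without cKO 1 there were 4 higher (14.5%) and 5 lower (23.3%).

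The remaining genes with the highest fold changes did not pass. Rpl13a, which in human monocytes also leaves the ribosome to silence inflammatory messenger RNAs, had 131.7 and 116.5 CPM in cKO and 94.9, 69.9 and 64.7 CPM in Ctrl (log2 fold change 0.70, SE 0.20, edgeR adjusted p = 0.0647). Rpl36a, a protein at the exit site for transfer RNA, had 34.4 and 28.0 CPM in cKO and 22.9, 17.2 and 18.3 CPM in Ctrl (0.68, SE 0.19, edgeR adjusted p = 0.0627). Rps12 had 13.5 and 16.6 CPM in cKO and 11.6, 8.59 and 7.87 CPM in Ctrl (0.69, SE 0.24, edgeR adjusted p = 0.102). In all of these both cKO libraries lay above every Ctrl library. Rpl10, which joins the large subunit late in its assembly, had 141.5 and 74.0 CPM in cKO and 66.4, 69.5 and 63.4 CPM in Ctrl, which gives a log2 fold change of 0.70 ± 0.27 (SE) at an edgeR adjusted p = 0.132. Its value rests on cKO 1, since the log2 fold change was 0.14 without cKO 1 and 1.09 without cKO 2.

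At the other end, Rps18 had 121.7 and 94.9 CPM in cKO and 176.8, 145.6 and 133.0 CPM in Ctrl, which gives a log2 fold change of -0.49 ± 0.19 (SE) at an edgeR adjusted p = 0.139. Rps3, a protein at the entry of the messenger RNA channel that also takes part in DNA repair, had 243.9 and 215.7 CPM in cKO and 312.4, 278.3 and 301.2 CPM in Ctrl (-0.37, SE 0.14, edgeR adjusted p = 0.129). After TMM scaling these were the only ribosomal protein genes whose cKO libraries both lay below every Ctrl library, but neither passed the test. In FPKM the groups overlapped for Rps3, with 134.6 and 141.5 in cKO and 156.3, 139.2 and 160.9 in Ctrl. Under total-count scaling the log2 fold change was -0.28 for Rps18 and -0.16 for Rps3. At the annotated starts used here, Rps18 has the TOP run printed above and no such run is in the window shown for Rps3. Whether the messenger RNA of Rps3 begins at that annotated start was not tested. Rpl34 had 47.2 and 29.0 CPM in cKO and 55.9, 43.3 and 42.1 CPM in Ctrl (log2 fold change -0.31, SE 0.25). Rpl14 had 106.3 and 82.5 CPM in cKO and 130.8, 98.2 and 90.7 CPM in Ctrl (-0.17, SE 0.21). In both, 1 of the cKO libraries lay within the Ctrl range, and the edgeR adjusted p was 0.447 for Rpl34 and 0.621 for Rpl14. For Rpl14 the sign turned under total-count scaling (0.036).

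**Figure D2:**
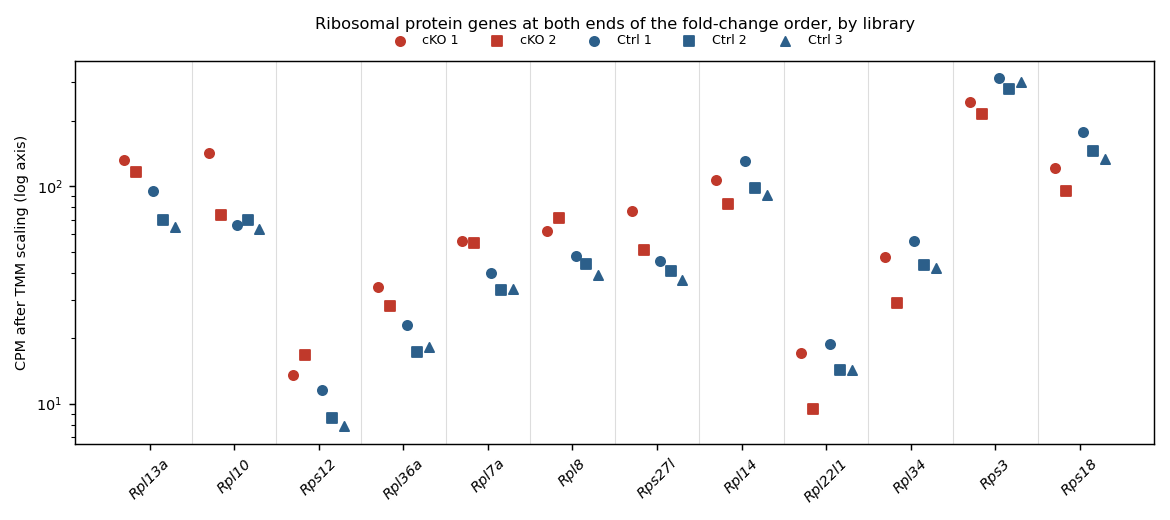
CPM after TMM scaling (log axis) of the ribosomal protein genes at both ends of the order of fold changes, a point for each library, cKO in red and Ctrl in blue. Both cKO points lie above all Ctrl points from Rpl13a to Rps27l and below all of them for Rps3 and Rps18.

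Large and small subunit genes had similar fold changes. In the large subunit 30 of 46 tested genes had a positive log2 fold change, with a median of 0.18, and in the small subunit 25 of 31, with a median of 0.24. Over all tested genes 47.1% were positive and the median was -0.06. Over the 4067 genes at least as abundant as the lowest tested member 56.4% were positive and the median was 0.09. Both cKO libraries lay above every Ctrl library in 15 of the 77 genes (9 of the large and 6 of the small subunit), against 22.8% of all tested genes. In 2, both of the small subunit, they lay below, against 28.7% of all tested genes. Of the 4067 genes just named, both cKO libraries lay above every Ctrl library in 1276 and below in 1022. Scaling by total counts raised the median of all genes by 0.22 and that of the members to 0.43. The members stood 0.27 above all genes under either scaling, which says little, since scaling moves all genes nearly alike. With each library left out in turn, this gap ran from 0.14 (without cKO 1) to 0.44 (without cKO 2). Without cKO 1 the median was 0.01 for the large and 0.11 for the small subunit, without cKO 2 it was 0.32 and 0.37, and without Ctrl 1 it was 0.34 and 0.41. The cKO libraries were not alike in these genes. Of the 77, cKO 1 was above every Ctrl library for 46 and cKO 2 for 15, and cKO 2 was below every Ctrl library for 14 and cKO 1 for 2. The same counts were not made over all tested genes, so whether this is particular to the family was not tested. The library with more macrophage marker RNA, cKO 1, was also the one with the higher ribosomal protein levels, and whether these are linked was not tested.

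**Figure D3:**
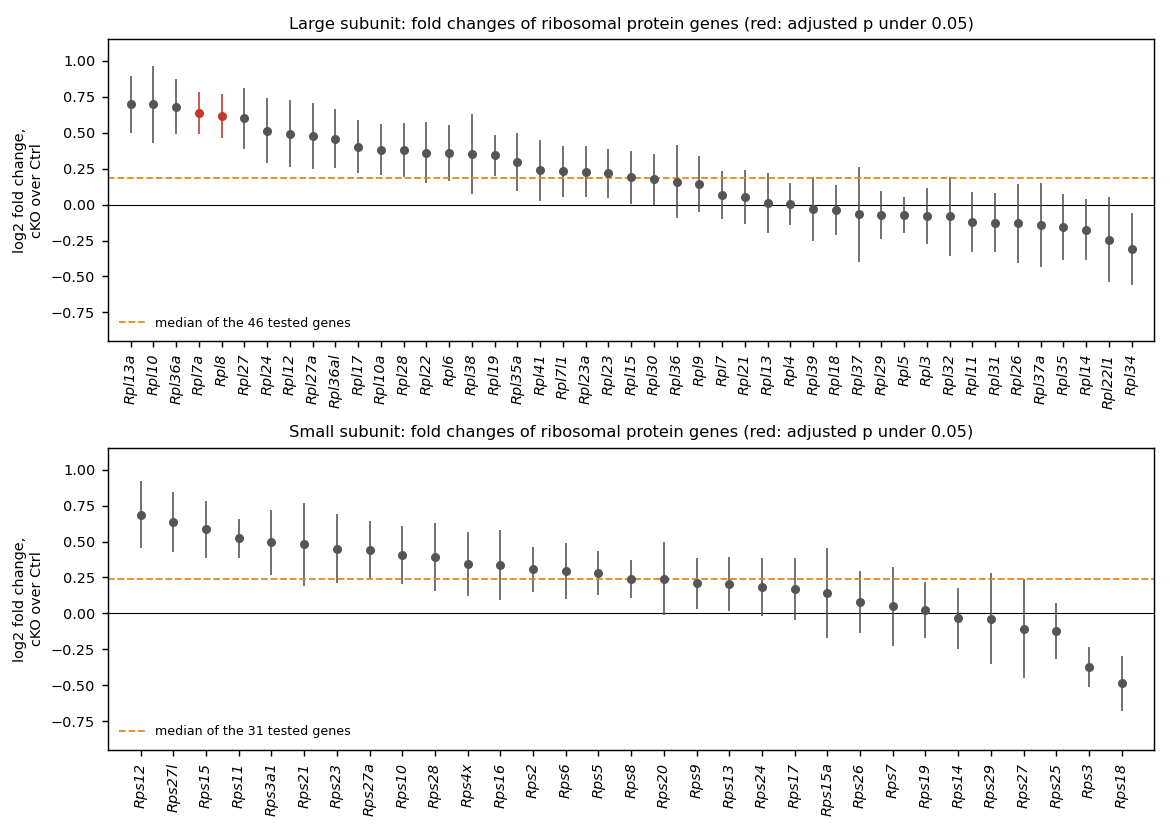
Log2 fold change, cKO over Ctrl, of 76 of the 77 tested ribosomal protein genes, of the large subunit (upper panel) and the small subunit (lower panel), with bars of 1 SE, and the median of all tested genes of each subunit as a dashed line. Rpl7a and Rpl8, in red, passed the edgeR test. The medians are 0.18 in the large and 0.24 in the small subunit.

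Counted together, ribosomal protein genes took 0.750% and 0.718% of all counts in cKO, against 0.641%, 0.535% and 0.550% in Ctrl (0.734 ± 0.0229% in cKO, SD, n = 2, and 0.575 ± 0.0572% in Ctrl, SD, n = 3). Both cKO libraries lay above all Ctrl libraries on this measure. Crystallins took a smaller share in cKO, and outside the crystallins the ribosomal protein genes took 2.43% and 2.14% in cKO and 2.46%, 1.95% and 1.92% in Ctrl. On that measure Ctrl 1 was the highest library and the groups overlapped (2.28 ± 0.205% in cKO, SD, n = 2, and 2.11 ± 0.304% in Ctrl, SD, n = 3).

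With all members summed, the balance between the subunits differed less between groups than between libraries of a group. Summed FPKM of the large subunit over that of the small subunit was 1.66 and 1.63 in cKO and 1.64, 1.66 and 1.64 in Ctrl. The means were 1.65 ± 0.0248 in cKO (SD, n = 2) and 1.65 ± 0.0106 in Ctrl (SD, n = 3), a log2 difference of -0.00089 against a pooled SD of 0.0146. Without the 5 most abundant genes of each subunit the ratio was 1.649 and 1.542 in cKO and 1.653, 1.704 and 1.697 in Ctrl. Its log2 difference was -0.08 against its own pooled SD of 0.044, with both cKO libraries below every Ctrl library, and this difference was not tested. Across the 77 genes, Pearson's r of log2 FPKM between libraries was 0.982 to 0.993 within Ctrl, 0.974 between the cKO libraries and 0.940 to 0.969 between groups. These values are across genes of the same libraries and genes are not independent replicates.

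**Figure D4:**
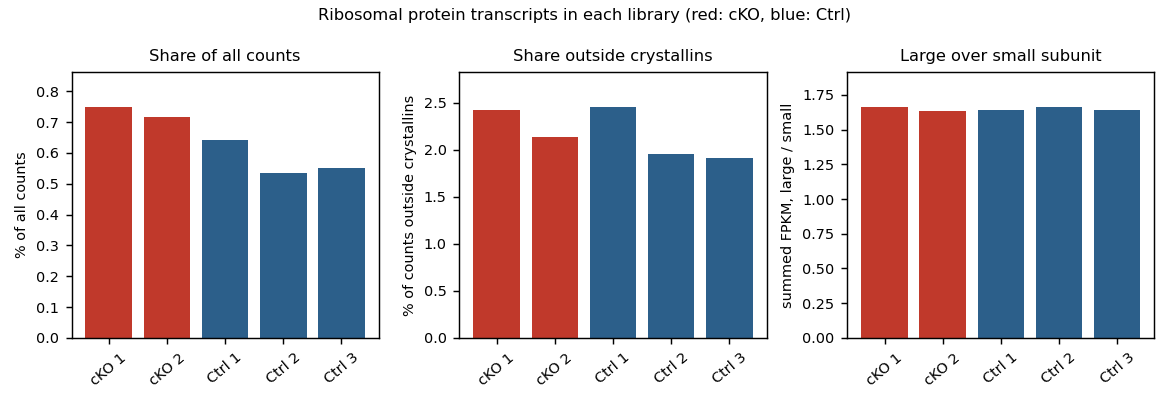
Ribosomal protein genes in each library, cKO in red and Ctrl in blue: share of all counts in percent, share of the counts outside crystallins in percent, and summed FPKM of the large over the small subunit. The first measure separates the groups (0.718 to 0.750% in cKO, 0.535 to 0.641% in Ctrl), and in the others the groups overlap.

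Paralogues were compared with their partners as ratios of FPKM within a library. Of the 8 pairs listed, 4 had counts for both genes in every library. Rpl3 with Rpl3l, Rpl39 with Rpl39l and Rpl10 with Rpl10l gave no ratio, because the paralogue was at 0 in some library, and Rps4x had no partner to be measured here. In all 4 ratios the groups did not overlap, but the exact two-sided permutation test over 10 splits cannot give a p below 0.1.

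The ratio of Rpl22l1 to Rpl22 had the lowest log2 difference of the pairs. In mice, Rpl22 protein is known to hold back Rpl22l1 RNA. The ratio of Rpl22l1 to Rpl22 was 0.988 and 0.675 in cKO and 1.37, 1.53 and 1.34 in Ctrl. The paralogue was thus the more abundant in every Ctrl library. In cKO 1 the genes were nearly level, and only in cKO 2 was the partner clearly the more abundant. The log2 difference was -0.79 (exact permutation p = 0.1, 0.133 adjusted over the 4 pairs). Rpl22l1 itself had 32.4 and 21.1 FPKM in cKO and 31.4, 24.8 and 27.1 FPKM in Ctrl, and Rpl22 had 32.8 and 31.3 FPKM in cKO and 22.9, 16.2 and 20.3 FPKM in Ctrl. Rpl22 alone lay higher in both cKO libraries on this scale, whereas Rpl22l1 overlapped, and neither passed in edgeR (log2 fold change -0.24, SE 0.29, adjusted p = 0.618 for Rpl22l1 and 0.36, SE 0.21, adjusted p = 0.297 for Rpl22). The fold change of Rpl22l1 was -0.75 without cKO 1 and 0.12 without cKO 2, each from a lone cKO library. The log2 difference of its ratio to Rpl22 lay between -0.51 and -1.06 with each library left out. Its sign could not turn, because the groups did not overlap in this ratio.

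Rps27l, which p53 induces in human cells, was the more abundant partner of Rps27 in every library. The ratio of Rps27l to Rps27 was 2.39 and 2.37 in cKO and 1.09, 1.71 and 1.76 in Ctrl, a log2 difference of 0.68 (exact permutation p = 0.1, 0.133 adjusted). Rps27l had 76.8 and 50.7 CPM in cKO and 45.3, 40.8 and 37.1 CPM in Ctrl (log2 fold change 0.64, SE 0.21, edgeR adjusted p = 0.0925, and 0.29 without cKO 1). Both cKO libraries lay above the Ctrl libraries. Rps27 had 22.2 and 14.9 CPM in cKO and 28.8, 16.5 and 14.6 CPM in Ctrl, with overlap (-0.11, SE 0.34, edgeR adjusted p = 0.864). Counts of Rps27 were not whole numbers in any library, so reads were shared with other copies and its level is uncertain.

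The ratio of Rpl36al to Rpl36a was 2.47 and 2.39 in cKO and 2.95, 2.93 and 2.58 in Ctrl, a log2 difference of -0.21 (exact permutation p = 0.2, 0.2 adjusted). Rpl36al, an intronless copy of nearly the same protein, had 93.6 and 73.7 CPM in cKO and 74.5, 55.8 and 52.3 CPM in Ctrl (log2 fold change 0.46, SE 0.21, edgeR adjusted p = 0.182). Rpl7l1, a Rpl7 relative that was far scarcer than Rpl7, gave ratios of 0.0514 and 0.0524 in cKO and 0.0466, 0.0455 and 0.0444 in Ctrl, a log2 difference of 0.19 (exact permutation p = 0.1, 0.133 adjusted). The differences of both pairs kept their sign whichever library was left out, which had to follow because the groups did not overlap. The genes of the pairs that gave no ratio overlapped between the groups, Rpl10 aside. Rpl3 had 135.8 and 91.6 CPM in cKO and 126.0, 114.1 and 119.9 CPM in Ctrl. Rpl39 had 82.8 and 59.4 CPM in cKO and 88.5, 67.5 and 62.2 CPM in Ctrl. Rps4x had 96.2 and 61.2 CPM in cKO and 67.7, 55.2 and 63.2 CPM in Ctrl.

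**Figure D5:**
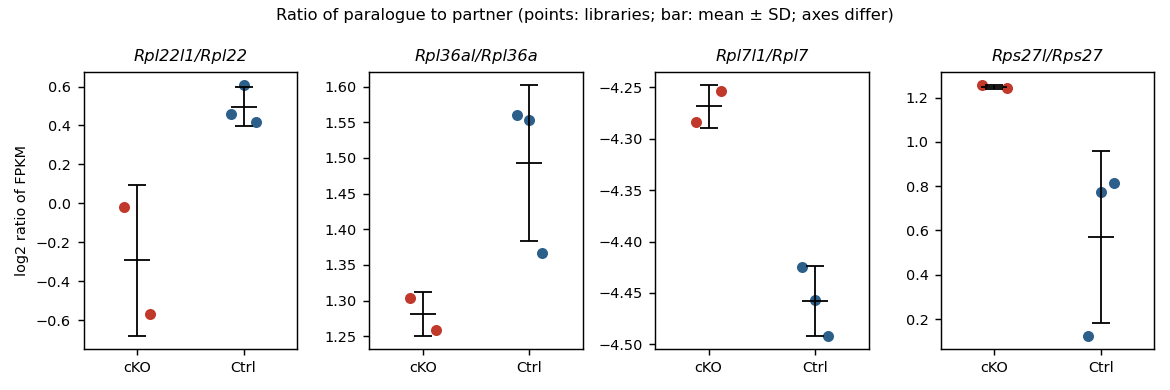
Log2 ratio of FPKM of each paralogue to its partner, a point for each library, with mean and SD, cKO left of Ctrl in each panel. The axes differ between panels. The cKO points lie below the Ctrl points for Rpl22l1 and Rpl36al and above them for Rpl7l1 and Rps27l.

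Shared reads and sex chromosomes bear on single members. Counts differed from a whole number by more than 0.005 in at least 1 library for 18 of the 77 genes, and their median log2 fold change was 0.19, against 0.22 for the 59 others. Counts of Rpl10 and of its copy Rpl10-ps3 were not whole numbers in any library, and the copy took 51.7 to 64.6% of their summed counts. Summed, they had 293 and 199 CPM in cKO and 187, 160 and 135 CPM in Ctrl, or 0.61 as log2 fold change (edgeR adjusted p = 0.117). The Y-linked genes Ddx3y, Eif2s3y and Kdm5d had 0 counts in both cKO libraries and 61 to 854 counts in the Ctrl libraries, so sex of the pools and genotype cannot be told apart. Rpl10, Rpl36a, Rpl39 and Rps4x are on the X chromosome, with log2 fold changes of 0.70, 0.68, -0.03 and 0.34, none of which passed in edgeR. Of the called genes named in the lists that follow, Mrpl39 aside, all lost the call in edgeR whichever Ctrl library was left out. Their edgeR adjusted p-values were then 0.0656 to 0.173. In those settings the log2 fold change was -1.83 to -1.51 for Mtor and 0.71 to 0.80 for Eef2. With cKO 1 or cKO 2 left out a lone cKO library remains, so those fits cannot show whether the calls hold.

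Among genes that make or serve the ribosome, the lists differed in their share of calls, to be read against 13.5% of all tested genes called in either direction. Called were 0 of 7 ribosomal proteins without a number, 3 of 78 mitochondrial ribosomal proteins, 1 of 11 elongation and termination factors, 2 of 41 assembly factors, 0 of 9 chaperones, 4 of 16 genes of the mTORC1, LARP1 and MYC list and 2 of 9 for rescue and storage. The 7 ribosomal proteins whose symbol has no number all had positive log2 fold changes, with a median of 0.33 and none called. Rplp1 and Rplp2, which form the flexible stalk that recruits elongation factors, led them. Rplp1 had 63.5 and 60.6 CPM in cKO and 48.0, 38.7 and 34.2 CPM in Ctrl (0.62, SE 0.18, edgeR adjusted p = 0.065). Rplp2 had 50.5 and 51.5 CPM in cKO and 43.4, 30.5 and 27.1 CPM in Ctrl (0.60, SE 0.22, edgeR adjusted p = 0.12). In both stalk genes the groups did not overlap. Rplp0, the stalk's base, had a log2 fold change of 0.21, Rpsa (also known as the laminin receptor) 0.32, Fau 0.31 and the scaffold Rack1 0.33. Of the 78 mitochondrial ribosomal protein genes, which build a separate ribosome, 63 were positive, with a median of 0.29. Of these, Mrps35 (1.06), Mrps10 (0.69) and Mrpl39 (0.68) rose and none fell.

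In the list of 12 elongation and termination factors, 11 were tested. Eef2, the factor that moves the ribosome along, rose with 127.5 and 152.0 CPM in cKO and 89.4, 83.6 and 81.0 CPM in Ctrl (log2 fold change 0.72, SE 0.14, edgeR adjusted p = 0.028). The list's median was 0.38. Among 41 assembly factors 2 fell and none rose, with a median of -0.13, which was 0.11 under total-count scaling. They were Rrp12, which helps to export and mature the subunits (-2.37), and Mybbp1a, a nucleolar protein (-1.34), whose call was lost under total-count scaling (edgeR adjusted p = 0.0788). None of 9 chaperones of ribosomal proteins passed (median -0.09, and 0.12 under total-count scaling).

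Of 16 genes in the mTORC1, LARP1 and MYC list, 2 rose and 2 fell, with a median of -0.45. Mtor, the kinase itself, had 5.43 and 7.37 CPM in cKO and 17.1, 20.8 and 25.9 CPM in Ctrl (log2 fold change -1.73, SE 0.26, edgeR adjusted p = 0.0161). Eif4ebp1, a repressor of translation that mTORC1 switches off, had 54.9 and 25.3 CPM in cKO and 13.7, 11.5 and 11.7 CPM in Ctrl (1.70, SE 0.32, edgeR adjusted p = 0.0263). Both genes separated the groups fully. Rheb, which activates mTORC1, rose (0.93), and Tsc2, which restrains Rheb, fell (-0.81), but not under total-count scaling (edgeR adjusted p = 0.0688). Of 9 tested genes for the rescue and storage of ribosomes, none rose and 2 fell, namely Habp4, which binds idle ribosomes (-1.67), and Hbs1l, which frees stalled ones (-0.77). The call of Hbs1l was lost under total-count scaling (edgeR adjusted p = 0.0548), and the median was -0.21. The 8 snoRNA host RNAs listed were not analysed here.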

How the data were processed

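Poly(A) RNA of pooled mouse lenses was sequenced as paired reads of 150 bp, per the labels' protocols. The authors deposited expected counts, that is estimated counts, per gene and library, and per the values these were not scaled between libraries. RSEM, the trimmer Trimmomatic 0.18.0 and the build GRCm39 appear in the submitters' processing notes. No source used here names the aligner or states whether counting used strand. The deposited FPKM values are scaled by the authors to gene length and library size, per the file headers, and give no depth of their own.

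Expected counts were rounded to whole numbers, filtered with filterByExpr (minimum count 10, minimum total 15) and scaled by TMM. All 11724 remaining genes were compared by edgeR's quasi-likelihood test (edgeR 4.0.16, R 4.3.3) with Benjamini-Hochberg adjustment, with calls made under an adjusted p of 0.05. The SE comes from the F statistic. The script was tested on simulated data. The limit set by 0 counts was taken as 3 counts per library and covers counting error only. Limma 3.58.1 on log2(FPKM + 1) and log2(FPKM + 0.1), and DESeq2 1.42.0, were alternatives. Paralogue ratios of FPKM were compared by exact permutation.

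The pools are the replicates. The labels do not say that each came from separate litters, so p-values measure the spread between these pools. Replicate numbers recur in both groups, but nothing says that they pair libraries.

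The gene family, the gene lists and the tests were chosen with earlier results of these data known. Genes named with values are the 5 most abundant of each subunit, the called ones, the 5 highest and 5 lowest fold changes, both genes of each paralogue pair, Yap1 and, in related lists, at most 2 called genes each way and the ribosomal proteins without a number. Of the genes that this rule names, 2 are not reported here, and 1 of them is also left out of the plots. Mrpl39 was named beyond this rule after its value was seen, as were the cell markers, Y-linked genes, Rps20 and Rpl10-ps3. Rps4l and Znf598 were not analysed here. Other markers also differed between libraries. Summed CPM of erythroid markers was 65.6 and 2.20 in cKO and 5.42 to 50.0 in Ctrl, of endothelial markers 7.19 and 5.48 in cKO and 4.54 to 7.10 in Ctrl, of photoreceptor markers 7.64 and 1.86 in cKO and 1.84 to 44.6 in Ctrl, of fibroblast markers 19.2 and 6.15 in cKO and 1.42 to 2.97 in Ctrl, and of pigment cell markers 2.37 and 0.298 in cKO and 3.29 to 5.07 in Ctrl. Promoter sequences are RefSeq, build GRCm38.p6, which differs from the build of the files, so no coordinates were joined to the measurements.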

Additional observations from a re-analysis of the deposited data

Results flagged for a closer look

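Pseudogene copies of ribosomal protein genes lie outside the comparisons, and 3 of them were higher in both cKO libraries than in every Ctrl library. Of these, Rps18-ps5 had 1.04 and 2.11 counts in cKO and 0, 0 and 1.03 counts in Ctrl, under the limit of 3 counts per library, and is not read further. Rpl10-ps3 averaged 138.137 CPM in cKO and 94.7 CPM in Ctrl, with 151 and 125 CPM in cKO and 121, 90.9 and 72.0 CPM in Ctrl, and did not pass in edgeR (log2 fold change 0.55, SE 0.24, adjusted p = 0.172). Rpl9-ps6 averaged 0.351398 CPM in cKO and 0.0768 CPM in Ctrl, with 0.368 and 0.335 CPM in cKO and 0, 0 and 0.23 CPM in Ctrl, and was too scarce to be tested. Counts of both were not whole numbers wherever they were above 0, so some of their reads were shared with other genes. How much came from the parent genes was not tested.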

How the results depend on the processing

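With 2 cKO and 3 Ctrl pools precision is low, and the calls of Rpl8 and Rpl7a were lost without any 1 of the Ctrl pools. Counts of shared copies are uncertain, and sex, macrophage RNA and genotype move together. How many ribosomal protein genes were called higher depended on the setting, with 16 with total counts (scaling alone changed), 27 with limma on log2(FPKM + 1), 27 on log2(FPKM + 0.1) (12% of all genes higher) and 8 with DESeq2, against 2, and none of these settings called any lower. RLE scaling gave 3 (6.22% of all genes), and TMM without crystallins, no filter and summed pseudogenes gave 2 each (5.56%, 3.96% and 5.77%). All genes were called 1234 times higher and 717 lower under total counts, against 675 and 906. With log2(FPKM + 0.1) the small subunit's median was 0.48. The replicate number as a block left 0 calls higher (68 and 107 over all genes), with Rpl8 at an edgeR adjusted p of 0.293 and Rpl7a at 0.25. Deviations of same-numbered libraries from their group means correlated by 0.111 (number 1) and -0.083 (number 2). The deviations of the 2 cKO libraries mirror each other, so these values cannot decide whether the numbers pair libraries. Leaving out 1 library, where a lone cKO pool is assumed to vary like Ctrl, gave 0 to 20 higher and 0 to 5 lower genes, and a log2 ratio of large over small subunit between -0.016 and 0.014 (cKO minus Ctrl), which was -0.0789 without the 5 most abundant genes of each subunit. Leaving out Ctrl 1 and cKO 2 together gave 41 higher (15.3% of all genes) and 0 lower genes (21.1%), with medians of 0.45 (large) and 0.52 (small). That setting was chosen after the data were seen and takes out just the libraries whose loss widens the difference, so it lends no weight to a difference. The cause of these shifts was not tested. Signs of log2 fold changes that were not called also turned. Under total counts Rpl14 came to 0.036, Rps14 to 0.18, Rps25 to 0.085, Rpl3 to 0.12, Rpl39 to 0.17 and Rps27 to 0.11. With limma on log2(FPKM + 1) and on log2(FPKM + 0.1), Rpl14 came to 0.064 and 0.065, and on both Rps14 to 0.19, Rpl3 to 0.11, Rpl39 to 0.18 and Rps27 to 0.14. Rpl13 was -0.11 with the block. Without Ctrl 1 and cKO 2, Rpl34 came to 0.13, Rpl22l1 to 0.25, Rpl14 to 0.15, Rps14 to 0.29, Rps25 to 0.16, Rpl3 to 0.20, Rpl39 to 0.33 and Rps27 to 0.50. With each library left out in turn the ranges were -0.71 to 0.0057 for Rpl34, -0.75 to 0.12 for Rpl22l1, -0.38 to 0.031 for Rpl14, -0.27 to 0.16 for Rps14, -0.31 to 0.058 for Rps25, -0.40 to 0.18 for Rpl3, -0.30 to 0.19 for Rpl39, -0.44 to 0.28 for Rps27, -0.093 to 0.23 for Rpl13, -0.10 to 0.21 for Rpl7, -0.00041 to 0.54 for Rps6, -0.033 to 0.63 for Rps4x and -0.079 to 0.44 for Rplp0.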
